A study of Mus musculus with 8 samples.

Results

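Translation initiation factors are the proteins that bring the small ribosomal subunit, the initiator tRNA and the messenger RNA together and set the ribosome on the start codon. The set described here holds the protein-coding mouse genes whose symbol opens with Eif and a digit from 1 to 6, without the Eif2ak kinases and with the 3 eIF4E-binding protein genes. The rule found 51 genes among the 55416 gene identifiers of the count table, of which 49 passed the filter on low counts and were tested. They were measured by RNA sequencing in MB21, a mouse medulloblastoma line whose Ptch gene is mutated, grown unattached in DMEM/F12 with B27. One group received the compound DS-1-38, described by the submitters as a benzarone derivative, at 10 uM for 5 days, and the other received the DMSO vehicle for the same time. Each group had 4 libraries, called DS38 and DMSO here, and every library carries the same Ptch mutation. This is 1 cell line. Separate cultures are not named for the replicates, so a p-value here reflects only how far these libraries spread, and that spread may be technical.

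Initiation runs through a fixed order of steps. The factor eIF2, a trimer that carries GTP and the initiator tRNA, joins eIF1, eIF1A, eIF3 and eIF5 on the small subunit, and eIF2B later recharges eIF2 with GTP. The messenger RNA is delivered by eIF4F, made of the cap-binding protein eIF4E, the scaffold eIF4G and the helicase eIF4A, and the 4E-BP repressors block this step by occupying eIF4E. Phosphorylation of eIF2 and release of eIF4E by the kinase mTORC1 are the main points at which cells under nutrient stress adjust protein synthesis. Hedgehog signalling, which loss of Ptch switches on, has been linked to mTORC1 and eIF4E in the granule neuron progenitors from which such tumours arise.

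Library totals ran from 17142397 to 28476019 counts. Levels are given as CPM, counts scaled to a common library total with TMM factors that correct for composition. The granule neuron progenitor markers, from the cell of origin of this tumour, summed to 1448 to 1517 CPM in DMSO. In DS38 they summed to 1565 to 1627 CPM, with all 8 above the filter on low counts. These markers went both ways: 4 rose, among them Atoh1 and Barhl1 (log2 fold changes 0.60 and 0.71), and 2 fell, Gli1 and Zic1 (-0.60 and -0.16). Of the other cell types, the 7 microglia and macrophage markers summed to at most 0.173 CPM, with Cx3cr1 and C1qa at 0 counts, and the 5 endothelial markers to at most 2.61 CPM, with Cldn5 at 0. The 6 oligodendrocyte markers summed to 8.92 to 11.5 CPM, mostly Cnp, with Mag at 0. The 6 astrocyte markers summed to 119 to 124 CPM in DMSO and 112 to 114 CPM in DS38, nearly all of it Slc1a3, and the 6 fibroblast markers to 74.1 to 78.7 and 53.2 to 57.1 CPM, nearly all of it Pdgfra. In these lists Slc1a3, Pdgfra and Cnp fell (log2 fold changes -0.13, -0.52 and -0.33). Gfap, Tek and Col1a1 rose (0.75, 1.34 and 1.81) from low levels, 1.83, 0.318 and 0.233 CPM in DMSO. The part of these other cell types in the results below was not tested. Principal component 2 of log2 CPM, with 14.7% of the variance, put both replicates numbered 1 at its upper end (scores of 16 and 21.7). In such bulk libraries, fewer cells of a type and less RNA per cell cannot be told apart.

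Most initiation factor genes that changed were lower with DS-1-38, and most changes were small. By edgeR's quasi-likelihood test, 25 of the 49 genes fell and 5 rose at a Benjamini-Hochberg adjusted p under 0.05, and 19 did not pass. Over all 15133 genes tested, 39.5% passed this threshold, 20.7% as falls and 18.8% as rises, against 51% and 10.2% of the initiation factor genes. Abundant genes pass more often: among the 9189 genes with a mean at or above the 10.9 CPM of the least abundant tested member, Eif3j2, 28.2% fell and 20.6% rose. The median log2 fold change (DS38 against DMSO) was -0.14 for the 49 genes and -0.01 for all tested genes. Only Eif4ebp1 and Eif1 passed with a change of at least 1.5-fold, a size that 7.56% of all tested genes reached. In 27 of the 49 genes (55.1%) the groups did not overlap, as in 36.1% of all tested genes. With libraries scaled by their totals alone, in place of TMM factors that also correct for composition, 17 members fell and 7 rose, so that 70.8% of the members' calls were falls in place of 83.3%. Over all genes that scaling gave 2171 falls and 3915 rises, so that 35.7% of the calls were falls in place of 52.5%. The calls of 20 members, 17 of them falls, held in all 18 alternative settings, which included this one.

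**Figure D1:**
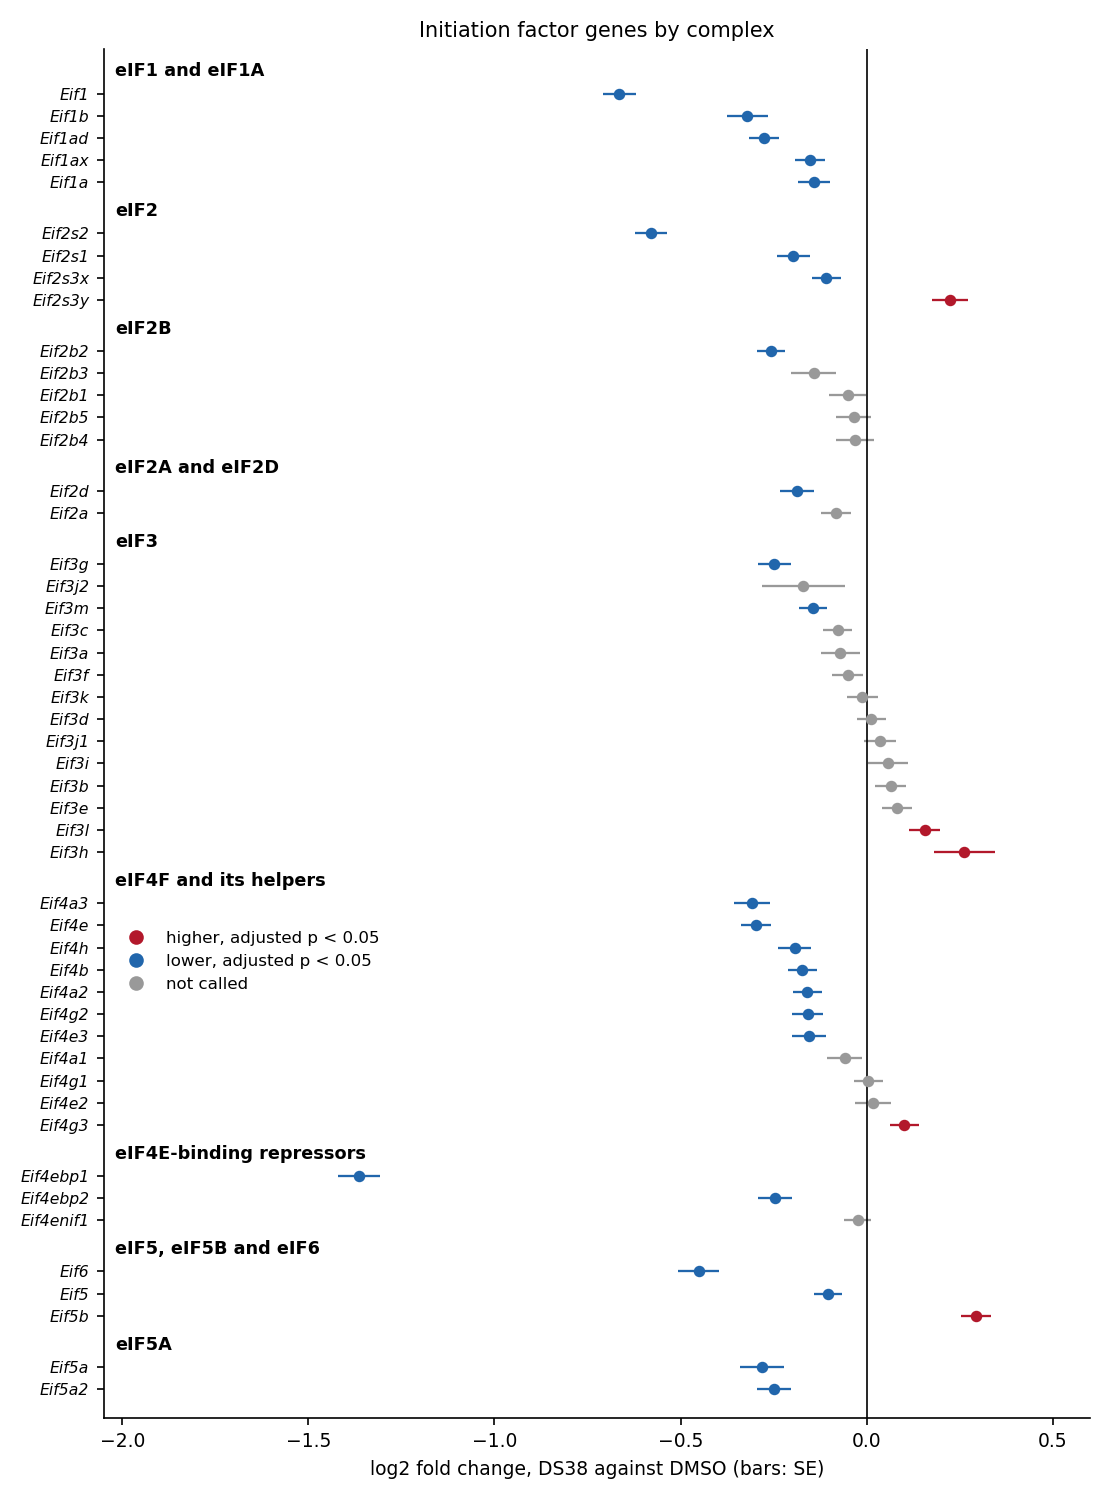
Log2 fold change of each of the 49 tested initiation factor genes (x axis, DS38 against DMSO; bars, standard error), grouped by the factor they belong to, with blue for falls, red for rises and grey for genes that did not pass at an adjusted p under 0.05. Eif4ebp1, at -1.37, lies farthest from 0, and the eIF3 genes lie on both sides of it.

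The summed level differed between factors. The eIF1 and eIF1A genes summed to 1017 ± 43.5 CPM in DMSO and 787 ± 20.6 CPM in DS38 (SD, n = 4 each), a ratio of 0.774. These sums are a description and were not tested. For the eIF2 genes the sums were 1275 ± 45.2 and 1029 ± 38.9 CPM, and for the eIF5A genes 1077 ± 68.5 and 887 ± 66.9. The 14 eIF3 genes summed to 3957 ± 47.1 CPM in DMSO and 3953 ± 24.6 in DS38, and their libraries overlapped. The eIF4F genes with their helpers summed to 7286 ± 134 and 6683 ± 91.7 CPM, with no overlap between the groups.

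**Figure D2:**
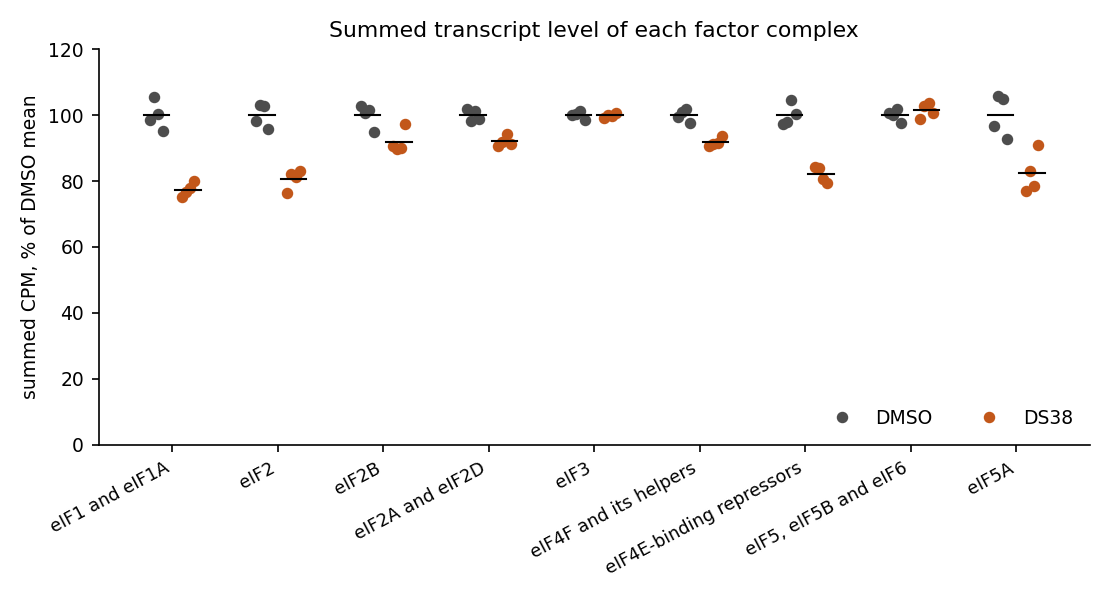
Summed CPM of the genes of each factor, as a percentage of the DMSO mean (y axis), with 1 point per library and a line at each group's mean. The eIF1 and eIF2 points of DS38 lie below all DMSO points, and the eIF3 points of both groups lie together.

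All 5 genes of the eIF1 and eIF1A factors fell. The protein eIF1 holds the scanning ribosome in an open state and keeps it from stopping at wrong codons. Eif1 stood at 423, 461, 445 and 405 CPM in the DMSO libraries and at 261, 276, 272 and 286 CPM in the DS38 libraries. Every DS38 library was below every DMSO library by more than 100 CPM, and the log2 fold change was -0.66 ± 0.045 SE (edgeR adjusted p = 2.20e-09), the second largest among the members. Eif1b, which encodes a close relative of eIF1, fell from 57.2 ± 4.84 to 45.9 ± 0.725 CPM (log2 fold change -0.32, edgeR adjusted p = 1.42e-04). Eif1ad, which encodes a protein with an eIF1A domain, fell from 91.3 ± 1.12 to 75.4 ± 3.05 CPM (log2 fold change -0.28, edgeR adjusted p = 3.49e-05). Some of the exon bases of Eif1ad, 15.3%, are shared with exons of Banf1 on the opposite strand, and the strand setting of the counting is not given. Over all libraries Banf1 held 28034 counts and Eif1ad 14610. The 2 genes of eIF1A itself, which works beside eIF1 in scanning, changed least, Eif1ax by a log2 fold change of -0.15 and Eif1a by -0.14. Both calls were lost when libraries were scaled by totals alone (edgeR adjusted p = 0.0731 and 0.153), and that of Eif1a also without DMSO replicate 2 (0.0635) or DMSO replicate 3 (0.0512). Eif1 has processed pseudogenes, which held 83 and 291 counts over all libraries, with 0 for the third. These counts cannot show how many reads the genes share, since the handling of reads that match several genes was not given.

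Of the 3 main subunit transcripts of eIF2, those of Eif2s2 and Eif2s1 fell in every setting. The small fall of Eif2s3x was lost in 12 of the 18 alternative settings. Eif2s2 encodes the beta subunit, the contact for eIF5 and eIF2B, and stood at 528, 577, 569 and 537 CPM in DMSO and at 346, 375, 380 and 377 CPM in DS38. The groups were far apart, with a log2 fold change of -0.58 ± 0.043 SE (edgeR adjusted p = 8.40e-09). Eif2s1 encodes the alpha subunit, which carries the serine that the eIF2 kinases phosphorylate. Its level fell from 384 ± 14.8 to 335 ± 17.4 CPM (SD, n = 4 each), with -0.20 as the log2 fold change (edgeR adjusted p = 1.66e-03). Eif2s3x, the X-linked gene of the GTP-binding gamma subunit, fell from 296 ± 12.2 to 275 ± 5.94 CPM (log2 fold change -0.11, edgeR adjusted p = 0.0381). That call rests on all libraries together: it was lost without any one of them other than DMSO replicate 4. The adjusted p then ran from 0.0503 without DS38 replicate 4 to 0.102 without DS38 replicate 1. Other settings without the call included DESeq2 size factors (edgeR adjusted p = 0.0514), the filter of 50 counts (0.062) and totals alone (0.352).

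Eif2s3y, the Y-linked gene of the same subunit, moved the other way, from 42.4 ± 1.5 to 49.6 ± 2.09 CPM (log2 fold change 0.22, edgeR adjusted p = 1.09e-03), with each DS38 library above each DMSO library. The X and Y copies are alike in sequence, and reads that fit both cannot be assigned with certainty.

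Ratios of 2 transcripts within a library do not depend on how libraries are scaled. TPM, which divides counts by gene length before scaling, allows levels of different genes to be set side by side. In DMSO the 3 main eIF2 subunits stood at nearly equal TPM, 271 ± 9.46 for Eif2s1, 286 ± 12 for Eif2s2 and 271 ± 11.4 for Eif2s3x. In DS38 they stood at 255 ± 7.81, 206 ± 3.56 and 271 ± 7.57 TPM, so that Eif2s3x showed no fall by this measure. Unlike the CPM values, TPM carries no TMM factors, so these measures differ in scaling for every gene. Eif5, called lower by edgeR, likewise stood at 151.0 ± 3.82 TPM in DMSO and 151.5 ± 6.28 in DS38. The ratio of Eif2s2 to Eif2s1 was 1.02, 1.06, 1.06 and 1.08 in the DMSO libraries and 0.815, 0.804, 0.833 and 0.784 in the DS38 libraries. All DS38 ratios were below all DMSO ratios (exact permutation test, two-sided p = 0.0286, the smallest that 4 against 4 libraries can give; adjusted p = 0.0381 over 8 ratios, whose genes were chosen after their values were seen). The ratio of Eif2s3x to Eif2s1 went from 1.00 ± 0.0292 to 1.07 ± 0.0361 (SD, n = 4 each; same exact p), where the highest DMSO and the lowest DS38 library both stood at 1.03.

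**Figure D3:**
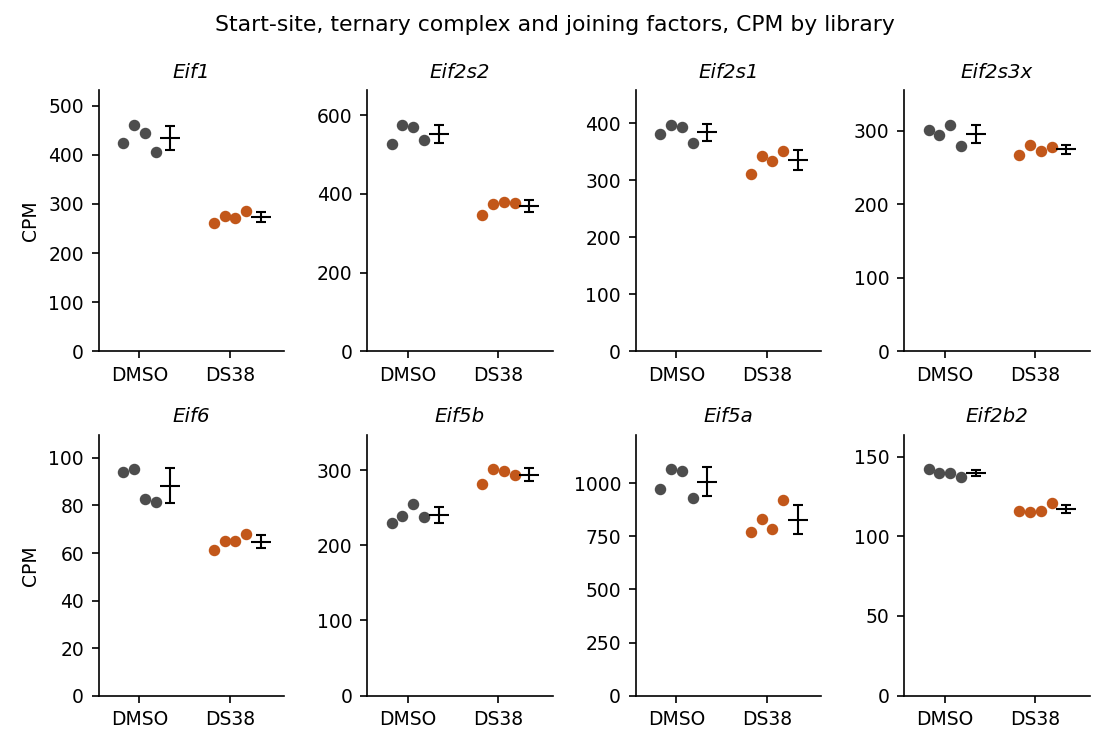
CPM of 8 initiation factor genes (y axis, from 0) in the 4 DMSO and 4 DS38 libraries, with 1 point per library and the mean and SD beside each group. Eif1, Eif2s2 and Eif6 are lower in every DS38 library than in any DMSO library, and Eif5b is higher.

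Of the 5 subunit genes of eIF2B, the exchange factor that recharges eIF2 with GTP, only Eif2b2 passed the test. Eif2b2 encodes the beta subunit and stood at 142, 139, 140 and 137 CPM in DMSO and at 116, 115, 116 and 121 CPM in DS38. The groups did not overlap, and the log2 fold change was -0.26 ± 0.037 SE (edgeR adjusted p = 2.95e-05). Eif2b5, the catalytic subunit gene, stood at 116 ± 6.21 and 114 ± 5.87 CPM (log2 difference -0.03, edgeR adjusted p = 0.598). Eif2b1 and Eif2b4, of the regulatory part, had log2 differences of -0.05 and -0.03 and adjusted p of 0.449 and 0.659. Eif2b3 stood at 41.0 ± 3.28 and 37.2 ± 2.41 CPM (edgeR adjusted p = 0.0718), and it passed without DMSO replicate 4 (0.0194) or without DS38 replicate 4 (0.0217), with the correction for gene length (0.0326) and without the filter on low counts (0.0401). Eif2d and Eif2a encode factors that can bring tRNA to the ribosome without eIF2. Eif2d fell from 86.0 ± 4.68 to 75.6 ± 1.79 CPM (log2 fold change -0.19, edgeR adjusted p = 2.62e-03), and Eif2a stood at 140 ± 4.5 and 133 ± 4.68 CPM (adjusted p = 0.122; 0.0358 with the correction for gene length).

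The 14 genes of eIF3, the large scaffold on the small subunit, split evenly, with 2 falls, 2 rises and 10 that did not pass. Eif3g, an RNA-binding subunit gene, fell from 169 ± 4.58 to 143 ± 8.98 CPM (log2 fold change -0.25, edgeR adjusted p = 2.44e-04), and Eif3m fell from 205 ± 7.14 to 185 ± 2.56 CPM (log2 fold change -0.14, edgeR adjusted p = 5.83e-03). With totals alone, the call of Eif3m was lost (0.0892). Eif3l stood at 209, 203, 203 and 192 CPM in DMSO and at 219, 227, 216 and 238 CPM in DS38, a rise without overlap (log2 fold change 0.16, edgeR adjusted p = 5.86e-03). Eif3h, a subunit gene with a wide spread in DMSO, stood at 288, 251, 210 and 241 CPM in DMSO and at 284, 301, 294 and 312 CPM in DS38. DMSO replicate 1 lay inside the DS38 range, and the rise (log2 fold change 0.26, edgeR adjusted p = 0.0296) was lost without DMSO replicate 2 (0.0689), DMSO replicate 4 (0.0839), DS38 replicate 2 (0.0622) or DS38 replicate 4 (0.0751).

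Among the 10 eIF3 genes that did not pass was Eif3a, the gene of the largest subunit and the most counted of the 14, at 983 ± 78.4 and 936 ± 36.4 CPM (edgeR adjusted p = 0.303). Eif3b stood at 385 ± 15.6 and 402 ± 13.4 CPM (adjusted p = 0.226) and Eif3c at 491 ± 17.4 and 465 ± 9.11 CPM (adjusted p = 0.121). Eif3d, a subunit that can bind caps itself, had a log2 difference of 0.01 (adjusted p = 0.82). Eif3e stood at 434 ± 15.8 and 459 ± 13.6 CPM (adjusted p = 0.116), and it passed as higher without DMSO replicate 1 (0.0499), without replicate 1 of both groups (0.0285) and with totals alone (6.88e-03). Eif3b passed as higher with totals alone too (adjusted p = 0.022), so that 4 eIF3 genes rose in that setting. Eif3j1 and its near-identical copy Eif3j2, at 124 ± 4.93 and 11.4 ± 0.639 CPM in DMSO, did not pass, and Eif3j2 was called lower without DS38 replicate 4 (log2 fold change -0.29, adjusted p = 0.0223).

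At the cap, the transcript of the cap-binding protein fell while those of the main scaffold and helicase did not pass. Eif4e stood at 298, 321, 299 and 286 CPM in DMSO and at 245, 243, 246 and 246 CPM in DS38. The 4 DS38 libraries lay within a few CPM of each other and all below DMSO, with a log2 fold change of -0.30 ± 0.040 SE (edgeR adjusted p = 1.39e-05). Eif4g1, the scaffold gene, stood at 758 ± 26.8 and 760 ± 15.6 CPM (SD, n = 4 each), a log2 difference of 0.005 (edgeR adjusted p = 0.938). Eif4a1, the main helicase gene, stood at 1443 ± 49.6 and 1385 ± 79.2 CPM (log2 difference -0.06, edgeR adjusted p = 0.331). The second helicase gene, Eif4a2, fell from 292 ± 4.83 to 262 ± 11 CPM (log2 fold change -0.16, edgeR adjusted p = 3.48e-03).

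The helpers of the helicase fell as well. Eif4b went from 963 ± 15.5 to 854 ± 28.4 CPM (log2 fold change -0.17, edgeR adjusted p = 1.86e-03) and Eif4h from 428 ± 21.2 to 374 ± 16.0 CPM (log2 fold change -0.19, edgeR adjusted p = 2.02e-03). Eif4a3, a relative of the helicase that marks spliced exon junctions, fell from 212 ± 15.7 to 172 ± 6.42 CPM (log2 fold change -0.31, edgeR adjusted p = 7.72e-05). Eif4g2, a scaffold that lacks the eIF4E-binding site, was the most counted member, at 2547 ± 61.6 and 2281 ± 38.0 CPM (log2 fold change -0.16, edgeR adjusted p = 5.09e-03). Eif4e3, an eIF4E relative, fell from 53.0 ± 0.584 to 47.5 ± 2.20 CPM (log2 fold change -0.15, edgeR adjusted p = 0.0113), a call lost without replicate 1 of both groups (0.0591) and with the correction for gene length (0.0618).

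In all, 7 of the 11 tested genes of eIF4F, its helpers and their relatives fell, 1 rose and 3 did not pass. This group is wider than the cap complex itself, since it holds Eif4a3, Eif4g2, Eif4b and Eif4h. With totals alone 4 fell, since Eif4a2 (edgeR adjusted p = 0.0503), Eif4g2 (0.0597) and Eif4e3 (0.111) no longer passed. The riser, Eif4g3, another scaffold gene, went from 180 ± 5.34 to 193 ± 5.81 CPM (log2 fold change 0.10, edgeR adjusted p = 0.0441). It passed with all 8 libraries, and the call was lost in 10 of the 18 alternative settings. It missed without DMSO replicate 1 (0.117), 2 (0.111) or 3 (0.0503), DS38 replicate 1 (0.115), 2 (0.109) or 3 (0.0721), or replicate 1 of both groups (0.238). It also missed with a correction for gene length (0.316), without the filter on low counts (0.154) and with the block for replicate numbers (0.103). Eif4e2, which encodes a cap-binding protein that acts as a repressor, stood at 109 ± 5.41 and 110 ± 7.04 CPM (adjusted p = 0.811). Eif4e1b, known from oocytes, had 0 counts in every library other than DS38 replicate 4, with 1. A count of 0 allows up to 0.159 CPM in the shallowest DMSO library, from 3 counts and for counting error only.

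Of the 3 tested genes whose products bind eIF4E and keep it from eIF4G, Eif4ebp1 showed the largest change of any initiation factor gene. It encodes 4E-BP1, a repressor that mTORC1 inactivates by phosphorylation and whose gene is a known target of the stress transcription factor Atf4. Eif4ebp1 stood at 66.0, 68.5, 61.3 and 60.9 CPM in the DMSO libraries and at 25.3, 26.9, 23.4 and 23.6 CPM in the DS38 libraries. All DS38 libraries lay far below all DMSO libraries, at a fold of 0.388 between the groups (log2 fold change -1.37 ± 0.057 SE, edgeR adjusted p = 1.77e-12). Over the alternative settings its log2 fold change ran from -1.41 to -1.30.

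Eif4ebp2, the more abundant repressor gene in these cells, fell less, from 364 ± 20.6 to 307 ± 12.2 CPM. Its log2 fold change was -0.25 ± 0.045 SE (edgeR adjusted p = 2.84e-04). Eif4enif1 encodes 4E-T, which takes eIF4E into the nucleus and to sites of messenger RNA decay, and stood at 123 ± 0.711 and 121 ± 0.721 CPM. Its groups did not overlap, yet the log2 difference of -0.02 did not pass (edgeR adjusted p = 0.624). Eif4ebp3, the third repressor gene, had 0, 0, 2 and 2 counts in DMSO and 2, 2, 1 and 0 counts in DS38 and was not tested. Most of its exons, 67.3% of their bases, are also exons of another annotated gene on the same strand.

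Per length, Eif4ebp1 in DMSO stood at 102 ± 4.93 TPM, Eif4ebp2 at 220 ± 14.2 TPM and Eif4e at 175 ± 7.12 TPM. The ratio of Eif4ebp1 to Eif4e was 0.606, 0.584, 0.561 and 0.582 in DMSO and 0.283, 0.304, 0.260 and 0.262 in DS38. These groups lay far apart (exact permutation test, two-sided p = 0.0286 and adjusted p = 0.0381 over 8 ratios). That p is again the smallest possible, for genes chosen after their values were seen. The ratio of Eif4ebp2 to Eif4e was 1.26 ± 0.109 and 1.30 ± 0.0593 (exact permutation test, two-sided p = 0.457; adjusted p = 0.522), with overlapping libraries, so no difference was found there. Against Eif4ebp2, Eif4ebp1 went from a ratio of 0.466 ± 0.0502 to 0.213 ± 0.00829 (exact permutation test, adjusted p = 0.0381).

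**Figure D4:**
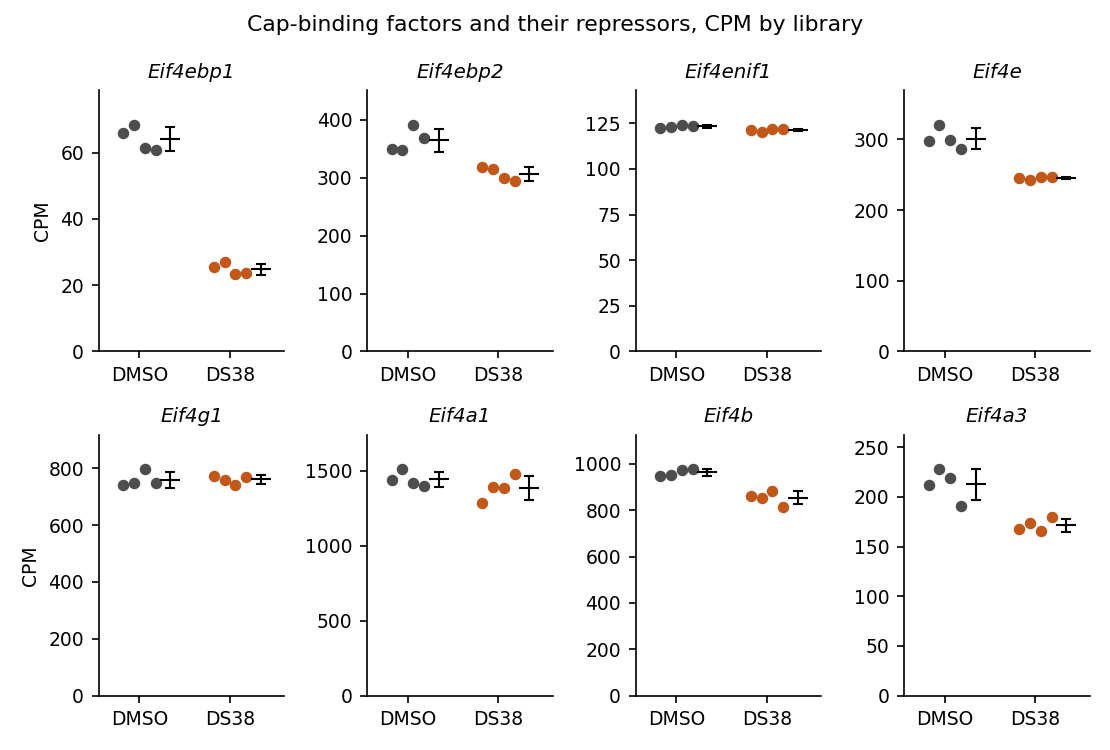
CPM of 8 genes of the cap-binding step and its repressors (y axis, from 0) in the 4 DMSO and 4 DS38 libraries, with 1 point per library and the mean and SD beside each group. Eif4ebp1 drops from at least 60.9 to at most 26.9 CPM, while the Eif4g1 and Eif4a1 points of both groups overlap.

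**Figure D5:**
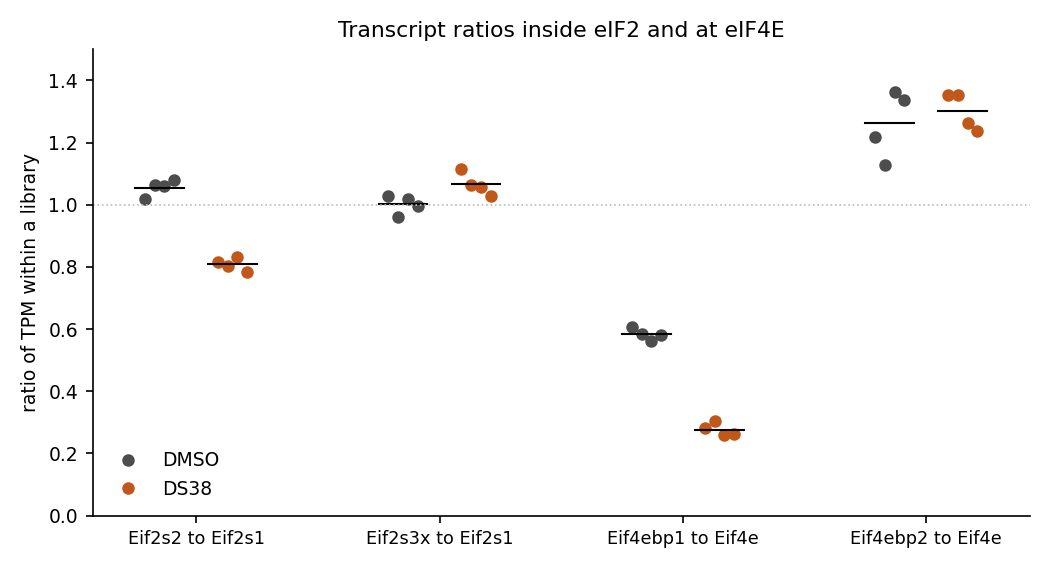
Ratios of TPM between 2 genes of the same library (y axis), with 1 point per library and a line at each group's mean. The ratios of Eif2s2 to Eif2s1 and of Eif4ebp1 to Eif4e are lower in all DS38 libraries, and the ratio of Eif4ebp2 to Eif4e overlaps.

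The late factors moved in opposite directions. Eif6 encodes a factor that keeps the large subunit from joining too early and takes part in making it. It stood at 94.1, 95.4, 82.6 and 81.5 CPM in DMSO and at 61.2, 65.1, 65.0 and 67.9 CPM in DS38, a fall without overlap (log2 fold change -0.45 ± 0.054 SE, edgeR adjusted p = 4.87e-06). Eif5b, the GTPase that joins the subunits, stood at 229, 239, 255 and 237 CPM in DMSO and at 282, 302, 299 and 293 CPM in DS38. This was the largest rise among the members (log2 fold change 0.29 ± 0.041 SE, edgeR adjusted p = 1.97e-05). Some of its exon bases, 16.8%, are shared with exons of Rev1 on the opposite strand, and the strand setting of the counting is not given in the sources used here. Eif5, which makes eIF2 hydrolyse its GTP at the start codon, fell from 295 ± 6.69 to 274 ± 7.11 CPM (log2 fold change -0.10, edgeR adjusted p = 0.0342). That call was lost in 9 of the 18 alternative settings. It was lost without DMSO replicate 1 (0.0899) or 3 (0.0558), DS38 replicate 1 (0.0672), 2 (0.0773) or 4 (0.103), or replicate 1 of both groups (0.136). The other settings were the filter of 50 counts (0.056), the block for replicate numbers (0.0745) and totals alone (0.368).

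Both eIF5A genes fell by similar amounts. This factor, the carrier of the modified lysine hypusine, helps ribosomes past difficult stretches such as runs of proline. Eif5a, first of all members in TPM in DMSO (1479 ± 94.4), stood at 973, 1068, 1058 and 929 CPM in DMSO and at 771, 833, 786 and 923 CPM in DS38. The closest libraries nearly met, and the log2 fold change was -0.28 ± 0.059 SE (edgeR adjusted p = 1.38e-03). Eif5a2 fell from 69.7 ± 2.49 to 58.6 ± 3.03 CPM (log2 fold change -0.25, edgeR adjusted p = 3.58e-04). The ratio of Eif5a2 to Eif5a was 0.0328 ± 0.00197 and 0.0337 ± 0.00385 (exact permutation test, two-sided p = 0.743; adjusted p = 0.743). The enzymes that make hypusine, Dhps and Dohh, had log2 differences of -0.01 and -0.02 (edgeR adjusted p = 0.895 and 0.942), though Dohh was low, at 3.47 ± 0.687 CPM in DMSO.

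Promoters were read for the members because the cap-binding gene Eif4e is a textbook target of Myc, which with Max binds the letters CACGTG. RefSeq's table (GRCm38.p6) held a start for 39 of the 51 genes, not including Eif4ebp1, and the 250 bases before each start were searched on both strands. CACGTG, which reads the same on both strands, was found in 9 of the 39 genes (23.1%), against 6.86% of 27025 genes in the table. The 27025 genes were not limited to those expressed in these cells. Whether other genes as abundant as the members hold the letters as often was not tested. It was in 5 of the 20 members that fell and in 4 of the other 19. Genes with several starts were searched in each and counted if any of them had a match. The Atf4 and C/EBP composite TGATGNAA, on either strand, was found in 1 of the 39 genes, Eif2s3x, and in 3.91% of all genes. The Myc family gene Mycn itself stood at 56.6 and 53.8 CPM in the mean (log2 difference -0.08, edgeR adjusted p = 0.186). Shown are 60 bases around the match nearest to the start, 5′ to 3′ on the gene's strand with CACGTG in capitals. Eif4e, Eif4h and Eif5a2 fell, Eif4g1 and Eif4a1 did not pass, and they are set together since both kinds hold the letters. The stretches lie, in GRCm38.p6, for Eif4e at chr3:138527177-138527236 (plus strand), Eif4h at chr5:134639473-134639532 (minus strand), Eif5a2 at chr3:28781133-28781192 (plus strand), Eif4g1 at chr16:20672646-20672705 (plus strand) and Eif4a1 at chr11:69672580-69672639 (minus strand).
Eif4e: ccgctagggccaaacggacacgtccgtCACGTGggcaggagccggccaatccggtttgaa
Eif4h: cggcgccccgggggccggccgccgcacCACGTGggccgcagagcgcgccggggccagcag
Eif5a2: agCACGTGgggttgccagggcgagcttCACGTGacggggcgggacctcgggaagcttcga
Eif4g1: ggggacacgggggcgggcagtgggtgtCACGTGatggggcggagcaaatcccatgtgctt
Eif4a1: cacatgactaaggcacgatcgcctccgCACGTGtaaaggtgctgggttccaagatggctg
The Eif5a2 stretch holds 2 matches. Eif4e also has 2, which begin 228 and 64 bases before the start, and only the nearer is shown. Whether any of these sequences is bound in MB21 cells was not measured.

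Genes that regulate or partner the initiation factors were counted from lists of 89 entries in all. Over all tested genes, 18.8% rose and 20.7% fell, and whether any list differed from these shares was not tested. Of 11 genes for the eIF2 kinases, their regulators and the eIF2 phosphatase, 3 rose, 3 fell and 5 did not pass. The kinase gene Eif2ak2, known for its response to double-stranded RNA, rose from 29.8 ± 3.04 to 43.0 ± 1.51 CPM (log2 fold change 0.53, edgeR adjusted p = 3.00e-06). Ppp1r15b, which directs the phosphatase to eIF2, fell from 374 ± 8.03 to 308 ± 5.96 CPM (log2 fold change -0.28, edgeR adjusted p = 1.17e-05). Of 29 tested genes of mTORC1, the kinase complex that frees eIF4E, and of its regulators and substrates, 9 rose, 8 fell and 12 did not pass. Leaving out DMSO replicate 2 brought the rises to 5. The leucine sensor gene Sesn2 fell from 63.0 ± 2.34 to 32.4 ± 2.00 CPM (log2 fold change -0.96, edgeR adjusted p = 7.42e-11). The other sestrin genes rose, Sesn1 by a log2 fold change of 0.23 (adjusted p = 1.76e-04) and Sesn3 by 0.25 (7.16e-04). Sesn3 was the most counted of them, at 245 ± 18.3 CPM in DMSO and 291 ± 12.9 CPM in DS38. Rragb, a GTPase gene that brings mTORC1 to lysosomes, fell from 40.4 ± 0.692 to 28.1 ± 0.933 CPM (log2 fold change -0.52, edgeR adjusted p = 1.46e-07).

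Among 22 partners of initiation that lack an Eif symbol, 7 rose, 7 fell and 8 did not pass. Gigyf2, a partner of the repressive cap-binding protein, rose (log2 fold change 0.47, edgeR adjusted p = 1.03e-07), and Slbp, which binds the ends of histone messenger RNA, fell (-0.40, adjusted p = 4.87e-07). The 7 rises were 4 without DMSO replicate 1, 2 or 4 or DS38 replicate 3, and the 7 falls were 4 with totals alone. Of 12 tested genes in the elongation list, 7 fell and the other 5 did not pass, with a median log2 fold change of -0.14. This list is wider than the elongation factors themselves, since it holds Eef2k and Eef1e1, which both fell. Eef2k, the kinase gene that restrains elongation, fell from 104 ± 2.75 to 77.4 ± 1.41 CPM (log2 fold change -0.42, edgeR adjusted p = 1.30e-07), and Eef1b2 fell as well (-0.34, adjusted p = 2.64e-05). With totals alone, 1 gene of the elongation list was called higher.

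Of 9 termination and recycling genes, 1 fell, 1 rose and 7 did not pass. Gspt1, the release factor GTPase gene, fell (log2 fold change -0.22, edgeR adjusted p = 4.44e-04), and Hbs1l, a ribosome rescue gene, rose (0.11, adjusted p = 0.0343). The rise of Hbs1l was lost without DMSO replicate 1 or 2, DS38 replicate 2, 3 or 4, or replicate 1 of both groups. It was also lost without the filter on low counts and with the block for replicate numbers. Without DMSO replicate 3 the list had 2 rises. The 2 mitochondrial initiation factor genes did not pass, with log2 differences of -0.09 for Mtif2 and 0.02 for Mtif3 (edgeR adjusted p = 0.0957 and 0.851), although Mtif2 was called lower without DMSO replicate 4 (0.0464).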

How the data were processed

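Messenger RNA of 8 MB21 samples was sequenced, 4 per group. The deposited values are raw read counts, as the authors' table gives them, beside the length of each gene in bases. Per the submitters' processing notes, alignment tools and counters named are STAR 2.7.9a and featureCounts. Subread 2.0.3, edgeR and R 4.1.0 are named too, and so are the builds GRCm39 and GRCh38.p13, with no role stated. Strand setting, annotation release and the handling of multiply matching reads were not given in the sources used here, so values of overlapping or near-identical genes are uncertain. At least 10% of exon bases are shared with another counted gene in 7 members: Eif1ad, Eif1b, Eif3d, Eif3j1, Eif4e3, Eif4ebp3 and Eif5b. Symbols for 52083 of 55416 identifiers came from GENCODE annotation, which is of an older mouse build, so it gave names and exon overlaps and no coordinates. RefSeq names 1 further gene, Eif4a3l1 (24 counts over all libraries), which is listed under another symbol there and was left out, as were 11 identifiers of the same name pattern that are not protein-coding. Among the latter were the processed pseudogenes Eif4a-ps4, Eif5al3-ps and Eif3s6-ps2, with 8500, 726 and 581 counts over all libraries.

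The test was edgeR 4.0.16 under R 4.3.3 (quasi-likelihood, robust, TMM factors, filterByExpr with its minimum of 10 counts), DS38 against DMSO, with Benjamini-Hochberg adjustment over 15133 genes at a threshold of 0.05. CPM values carry the TMM factors, and TPM was computed from the counts and the deposited lengths. Each SE is the log2 fold change over the root of its F value. The common coefficient of variation between libraries was 5.53%. Named genes were 12 members fixed whatever their values, up to 3 with the smallest p per factor, the 4 largest changes at 4 CPM or more, and up to 2 per list, and other members are named where a count would leave them out. The members, lists and rules were chosen with earlier results of these data known. The alternatives were DESeq2 1.42.0 (its size factors and its Wald test), library totals, limma-voom 3.58.1, a fit that was not robust, no filter, a gene length correction, a filter of 50 counts in 4 libraries, a block for replicate numbers, and leaving out each library or replicate 1 of both groups.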

Additional observations from a re-analysis of the deposited data

Results flagged for a closer look

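In 5 of 56 groups of 4 libraries (named members, each group apart), 1 library lay far from the other 3 by Dixon's test at the 95% level, which chance passes in about 5% of groups. Eif2s2 was lowest in DS38 replicate 1, at 346.1 CPM against 375.3 to 379.9. Eif4g1 was highest in DMSO replicate 3, at 797.7 CPM against 739 to 747.8. DS38 replicate 4 was highest for Eif2b2, at 121 CPM against 115.1 to 116, and for Eif2b3, at 40.79 CPM against 35.62 to 36.45. Eif4enif1 was lowest in DS38 replicate 2, at 120.2 CPM against 121.5 to 121.8, a narrow range. Without DS38 replicate 4, Eif2b3 was called lower (edgeR adjusted p = 0.0217), and the calls of the other 4 genes did not depend on the library named here.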

How the results depend on the processing

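Over the 18 alternative settings, no member called changed its sign. The counts of members that rose and fell were 5 and 25. They were 3 to 5 and 22 to 26 when each library was left out in turn, with 3 rises without DMSO replicate 2 or DS38 replicate 2. They were 4 and 23 with the replicate number as a block and 5 and 22 without replicate 1 of both groups. The block ended the calls of Eif2s3x (edgeR adjusted p = 0.0865), Eif5 (0.0745) and Eif4g3 (0.103) among the members. Correlations between same-numbered libraries, of their deviations from the group means, were 0.331, -0.0699, 0.067 and -0.0816. Replicate 1 of both groups deviated together, and the other 3 numbers stayed under 0.1, so the numbers were not taken as pairs. Of the named genes' values, 31 lost a call, 6 gained one and 25 changed sign, all of the last for genes that did not pass. Eif4g1 (0.005) had -0.026 with the length correction, -0.006 with no filter, -0.016 without replicate 1 of both groups and -0.008 to 0.028 with a library left out. With totals alone, Eif4a1 had 0.001, Eif2b1 0.010, Eif4enif1 0.036, Dhps 0.047 and Dohh 0.043. With the length correction Dhps had 0.038 and Dohh 0.039, and with the filter of 50 counts Dhps had 0.001. With a library left out, Mtif3 ran from -0.036 to 0.064, Dhps from -0.065 to 0.034 and Dohh from -0.089 to 0.134. Other members that did not pass changed sign in 1 to 6 of the 18 settings (Eif2b5, Eif2b4, Eif3f, Eif3d, Eif3k and Eif4e2). These are log2 differences, and the cause was not tested.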
